A study of Mus musculus with 24 samples.

Results

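The TGF-beta ligands, their receptors and the latency proteins that store them were followed through 2 mouse mammary tumor lines, D2.1 and D2A1, in culture and as tumors. The set comprised the 10 genes with the symbols Tgfb1, Tgfb2 and Tgfb3 (ligands), Tgfbr1, Tgfbr2 and Tgfbr3 (receptors), and Ltbp1, Ltbp2, Ltbp3 and Ltbp4 (latent TGF-beta binding proteins). It was fixed by gene symbol and not by any measured value. All 10 were among the 34519 gene identifiers that the cell table (35275 identifiers) and the tumor table (54532) share, and all 10 passed the filter on low counts in each of the 9 comparisons made.

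Bulk RNA-seq covered 24 libraries in 6 groups. Both lines go back to hyperplastic alveolar nodules of female BALB/c mice and the labels name no introduced allele, and D2A1 grows rapidly after dissemination where D2.1 lies dormant. Each line was sampled in culture (3 libraries each, named only as triplicates), as mammary fat pad tumors of young adult female BALB/c mice with intact immunity (4 tumors each), and as tumors of female SCID-beige mice (5 tumors each), which carry the Prkdc scid and Lyst bg mutations and lack T and B cells and have defective NK cells. The labels name no drug, and the tumors were individual ones collected on reaching a set size. Size, not time in the mouse, was thus matched, and the paper calls these D2.1 tumors later-stage. Line and any difference in that time cannot be told apart. Each line is 1 established line without a parental or normal control, and whole tumors hold host cells. In bulk samples, fewer cells of a type and less RNA per cell cannot be told apart.

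TGF-beta is made as a precursor that furin cuts within the cell, and the propeptide (the latency-associated peptide) stays wrapped around the mature dimer. In most cells, an LTBP is linked to that complex by disulfide bonds and ties it to fibrillin and fibronectin fibers, from which integrins, thrombospondin and proteases free the ligand. Freed ligand binds TGFBR2, which then phosphorylates TGFBR1, and this passes the signal to Smad2 and Smad3. TGFBR3 (betaglycan) presents ligand, and TGF-beta2 in particular, to TGFBR2. In the mammary gland the pathway is known for growth arrest of epithelium, matrix production by fibroblasts, epithelial-mesenchymal transition and suppression of T cells.

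The ligands differ in the codons for arginine, glycine and aspartate to which alpha-v integrins bind. The longest open reading frames of the protein-coding GENCODE M21 transcripts held 390 codons for Tgfb1, 442 for Tgfb2 and 412 for Tgfb3. Those codons (capitals) started at codon 244 of Tgfb1 and at codon 261 of Tgfb3, and the frame of Tgfb2 held 0 copies.
Tgfb1 at the integrin-binding codons: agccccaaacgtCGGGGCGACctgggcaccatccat
Tgfb3 at the integrin-binding codons: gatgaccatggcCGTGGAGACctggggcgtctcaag
All 3 held 1 match to the furin cutting pattern ahead of the mature ligand (capitals), starting at codon 275 in Tgfb1, 327 in Tgfb2 and 297 in Tgfb3.
Tgfb1 at the furin site: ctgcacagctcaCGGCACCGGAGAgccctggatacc
Tgfb2 at the furin site: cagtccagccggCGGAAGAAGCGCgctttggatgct
Tgfb3 at the furin site: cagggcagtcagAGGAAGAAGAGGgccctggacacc
The genes lie on GRCm38 at chr7:25687002-25705077 (Tgfb1, plus strand), chr1:186622792-186705989 (Tgfb2, minus) and chr12:86056745-86079041 (Tgfb3, minus).

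Promoter sequence is shown for Tgfb2 and Ltbp1, since Tgfb2 was the ligand whose difference between the lines passed the test upward in culture and downward in SCID-beige tumors, and Ltbp1 was the member lower in D2.1 in all 3 settings. RefSeq promoters on GRCm38.p6 were at hand for 8 of the 10 members, and were not matched for Tgfb3 and Tgfbr3. Of these, the 250 bases before the start are given 5′ to 3′ in lower case, with motif matches in capitals.
Tgfb2, chr1:186705990-186706239, minus strand: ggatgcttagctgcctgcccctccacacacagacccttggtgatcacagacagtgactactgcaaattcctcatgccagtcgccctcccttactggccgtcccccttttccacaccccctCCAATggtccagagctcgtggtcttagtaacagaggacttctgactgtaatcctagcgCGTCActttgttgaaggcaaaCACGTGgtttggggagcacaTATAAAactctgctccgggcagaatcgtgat
Ltbp1, chr17:75005279-75005528, plus strand: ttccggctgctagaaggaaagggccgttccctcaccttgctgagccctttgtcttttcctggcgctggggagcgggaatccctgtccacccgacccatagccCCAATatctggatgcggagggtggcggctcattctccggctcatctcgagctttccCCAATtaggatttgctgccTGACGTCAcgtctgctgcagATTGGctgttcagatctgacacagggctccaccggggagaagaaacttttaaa
Motifs were searched on both strands. They were the TATA box, searched as TATAAA, the E-box bound by basic helix-loop-helix factors, searched as CACGTG, the box bound by factor NF-Y, searched as CCAAT, and the GC box bound by Sp factors, searched as GGGCGG. The cAMP response element was searched as TGACGTCA and, overlapping it, by its core alone, which reads TGACG in 1 direction. The AP-1 site was searched as TGANTCA, and a Smad palindrome as GTCTAGAC. In Tgfb2, a TATA box lay 31 to 26 bases before the start, an E-box 51 to 46 and a core of the cAMP response element 72 to 68, and Tgfb2 was the member with a TATA box or an E-box. Of 32851 promoters of the same length, 12.4% held the TATA box, 6.02% the E-box and 17.8% that core. In the printed window of Ltbp1, a full TGACGTCA lay 73 to 66 bases before the start, and 1.55% of all promoters held one. A second Ltbp1 promoter, chr17:75178531-75178780, held no match to any of the motifs, and the 8 members had 12 windows in all. The GC box was found in Tgfb1, Tgfbr1, Ltbp2 and Ltbp4 and in 32.7% of all promoters, and the NF-Y box in Tgfb2, Tgfbr1, Tgfbr2, Ltbp1 and Ltbp4 and in 33.8%. No member held the AP-1 site (6.75% of all promoters) or the Smad palindrome (0.167%). These are matches of letters in 1 window.

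Libraries held 16837260 to 24818234 counted reads in culture and 13566949 to 18355153 in tumors, so that 3 counts, a floor for counting error only, corresponded to 0.121 to 0.221 CPM (counts scaled to library size, TMM-normalized within each table). Every member was above that floor in every library, with the lowest count, 23, for Ltbp2 in D2A1 culture. Of the 6 mammary epithelium markers, the sum was 2345 to 4649 CPM in D2.1 culture and 130 to 340 CPM in D2A1 culture, with Krt5 at 0 in both. In tumors the sums of the lines overlapped (360 to 563 CPM in D2.1 and 514 to 600 CPM in D2A1 in BALB/c mice, 470 to 1233 and 444 to 881 CPM in SCID-beige mice). Of the list, the luminal keratin Krt18 was higher in D2.1 culture (499 to 1200 CPM against 99.6 to 191). It was lower in D2.1 tumors (9.34 to 57.6 CPM against 301 to 418 in BALB/c mice, 12.8 to 171 against 263 to 542 in SCID-beige mice). The rest of the list, summed without Krt18, was higher in D2.1 than in D2A1 tumors of BALB/c mice. Krt18 thus does not stand for the epithelial markers as a set. Some libraries stood apart. BALB/c D2.1 tumor 1 held milk protein transcripts (382 CPM over 4 genes), BALB/c D2.1 tumor 4 held skin keratinocyte transcripts (120 CPM over 4 genes), and SCID-beige D2.1 tumors 3 and 4 differed from the other 3 of their group in several members, as given below. Without BALB/c D2.1 tumors 1 and 4, no call on a member changed. Skeletal muscle markers summed to 31.7 to 342 CPM in BALB/c and 1.44 to 255 CPM in SCID-beige D2.1 tumors. In D2A1 tumors they summed to 7.44 to 61.2 and 2.33 to 18.7 CPM. The highest sums were in BALB/c D2.1 tumor 1 and SCID-beige D2.1 tumor 4. Adipocyte markers reached 187 CPM in BALB/c D2.1 tumor 1. The part of such tissue in the members' levels was not tested.

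**Figure D1:**
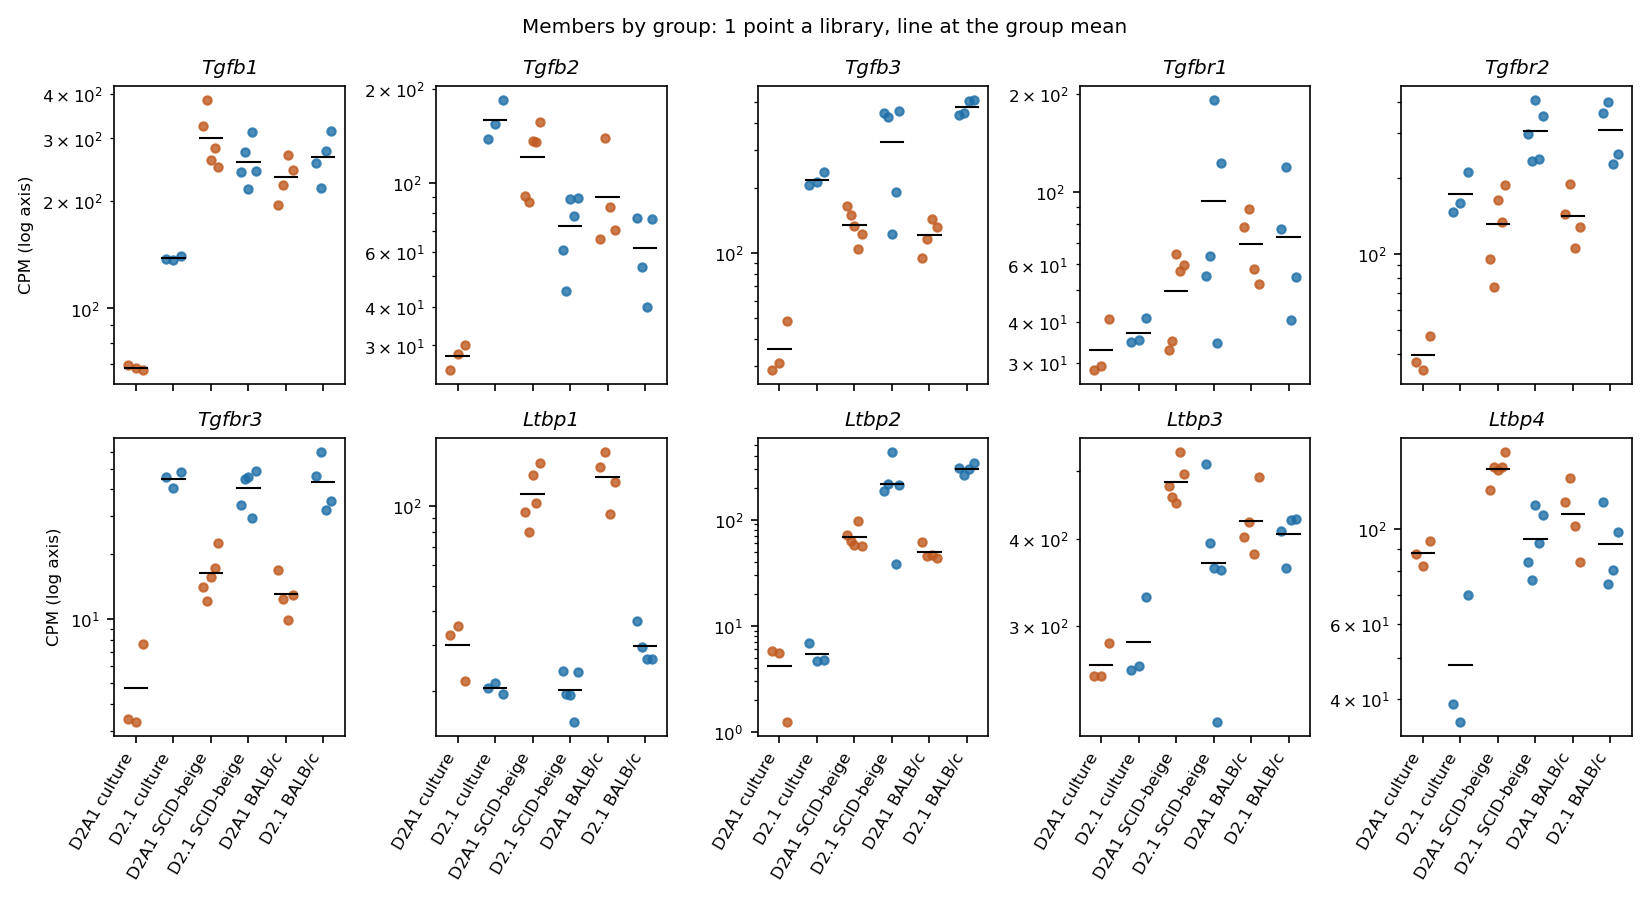
TMM-normalized CPM of each member (log axis, 1 panel a gene) in the 6 groups, with 1 point a library and a line at the group mean; D2A1 is orange and D2.1 blue. Tgfb3, Tgfbr2 and Tgfbr3 points of D2.1 lie above those of D2A1 in culture and in BALB/c tumors, whereas Ltbp1 points of D2.1 lie below, and Tgfb2 is higher in D2.1 in culture but not in tumors. Culture and tumors were normalized in separate tables.

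In culture, D2.1 cells carried more mRNA of all 3 ligands and of Tgfbr2 and Tgfbr3 than D2A1 cells, and less of Ltbp1 and Ltbp4. Of the 10 members, 5 were higher and 2 lower in D2.1 at an adjusted p under 0.05 (edgeR's quasi-likelihood test with Benjamini-Hochberg adjustment over all genes, as in all tests below), against 44.9% of the 12489 genes tested. The members' median log2 fold change was 0.70, and that of all genes -0.017.

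Tgfb3 showed the largest ligand difference. It was at 205, 211.6 and 236 CPM in the D2.1 cultures and at 28.5, 30.9 and 48.4 CPM in the D2A1 cultures. The groups did not overlap, and the third D2A1 culture was the highest of its group. The log2 fold change was 2.60 ± 0.21 (SE), which is 6.05-fold (adjusted p = 2.14e-05). Tgfb2 was at 138, 155 and 185 CPM in D2.1 and at 25, 28.2 and 30.1 CPM in D2A1, again without overlap, a log2 fold change of 2.52 ± 0.15 (adjusted p = 4.21e-06). Tgfb1, the ligand most widely made by immune and stromal cells, was at 137, 137 and 140.3 CPM in D2.1 and at 69.3, 67.9 and 67.1 CPM in D2A1. Its spread within a line was narrow, and the difference was 2.03-fold (log2 fold change 1.02 ± 0.10, adjusted p = 7.86e-05).

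Among the receptors, the type II receptor and betaglycan differed between the cultured lines. Tgfbr2 was at 146, 159 and 210.3 CPM in D2.1 and at 37.1, 34.5 and 47.2 CPM in D2A1 (log2 fold change 2.12 ± 0.18, adjusted p = 3.44e-05). Tgfbr3 was at 45.7, 40.6 and 48.4 CPM in D2.1 and at 3.40, 3.29 and 7.61 CPM in D2A1, the largest fold among the members (9.37-fold, log2 fold change 3.23 ± 0.31, adjusted p = 6.46e-05). For Tgfbr1, the signalling type I receptor, the D2.1 cultures (34.6, 35.3 and 41.1 CPM) overlapped the D2A1 cultures (28.4, 29.4 and 40.8 CPM). Its log2 fold change was 0.17, with a 95% interval of -0.22 to 0.56 (adjusted p = 0.452).

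Latency proteins did not follow the ligands. Ltbp4, which anchors TGF-beta1 and takes part in elastic fiber assembly, was at 38.9, 35.3 and 70.0 CPM in D2.1 and at 87.6, 82.0 and 94.0 CPM in D2A1. It was lower in D2.1 without overlap (log2 fold change -0.87 ± 0.24, adjusted p = 0.0187), although without D2.1 culture 1 or 2 the adjusted p was 0.0725 or 0.0723. Ltbp1, the main carrier of the latent complex to fibronectin and fibrillin, was at 20.6, 21.5 and 19.5 CPM in D2.1 and at 32.5, 35.3 and 21.8 CPM in D2A1. The third D2A1 culture was close to the D2.1 range, and the call (log2 fold change -0.54 ± 0.19, adjusted p = 0.0457) was lost when any library but that one was left out (adjusted p = 0.0913 to 0.170). Ltbp3, at 259.7 to 329.8 CPM in D2.1 and 254 to 283 CPM in D2A1, and Ltbp2, at 4.64 to 6.85 CPM and 1.22 to 5.76 CPM, overlapped between the lines. Their 95% intervals were -0.21 to 0.42 and -0.74 to 1.49 on the log2 scale.

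The other genes of the pathway were grouped in 5 lists, to be read beside the 44.9% of all genes that passed in culture. Of the genes known to be induced by TGF-beta, 8 of 9 tested were higher in D2.1 culture and 0 lower (median log2 fold change 1.77). Among them were Acta2, smooth muscle actin (208.7 against 14.8 CPM, log2 fold change 3.82 ± 0.22) and Nedd9, a focal adhesion scaffold (66.9 against 13.1 CPM, 2.35 ± 0.18), with adjusted p of 3.64e-06 and 1.93e-05. Of the release and activation genes, 7 of 11 were higher and 0 lower (median 1.58), among them Lrrc32, which tethers latent TGF-beta to the cell surface (10.3 CPM in D2.1, and 0 to 4 counts a library in D2A1), and the integrin subunits Itgb3 (43.3 against 6.25 CPM, 2.79 ± 0.39) and Itgb8 (16.4 against 4.19 CPM, 1.96 ± 0.33), with adjusted p of 7.33e-05 to 0.00155. Of the matrix anchors, 3 of 7 were higher and 2 lower. The elastic fiber genes Fbln5 and Emilin1 were at 23.2 against 0.333 CPM (log2 fold change 6.09 ± 0.26, adjusted p = 9.27e-07) and 197 against 9.79 CPM (log2 fold change 4.33 ± 0.13, adjusted p = 4.27e-07), whereas the proteoglycan Bgn was at 1.68 against 18.1 CPM (-3.42 ± 0.40, adjusted p = 0.000199). Of the accessory receptors, 2 of 4 were higher, Nrp1 (266 against 116 CPM, 1.20 ± 0.22) and Acvr1 (59.5 against 39.1 CPM, 0.61 ± 0.12), and 1, the TGF-beta co-receptor Cd109, lower (2.57 against 20.2 CPM, -2.97 ± 0.24, adjusted p = 2.47e-05). Of the Smads and their regulators, 2 of 12 were higher, Smad3 (115 against 39.7 CPM, 1.54 ± 0.13, adjusted p = 2.51e-05) and Tgif1, and 1, the phosphatase gene Ppm1a, lower.

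**Figure D2:**
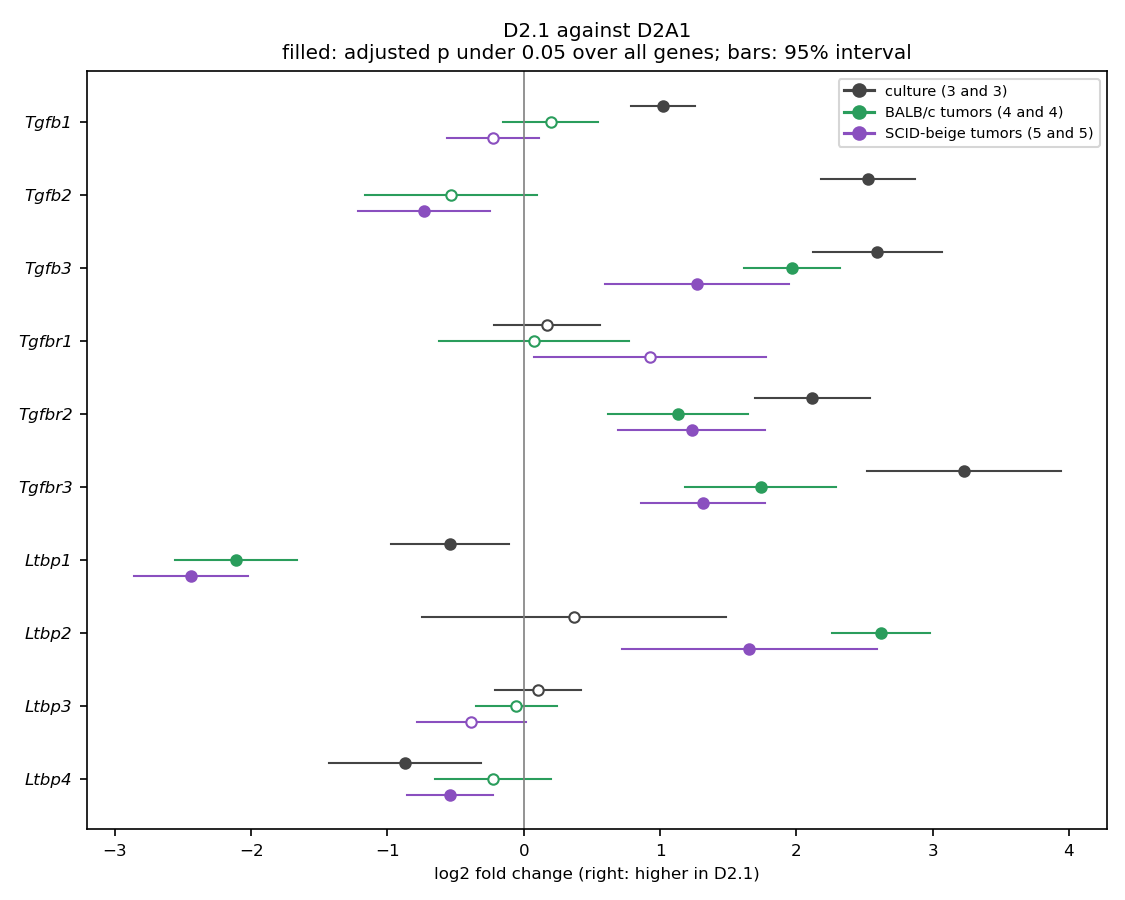
Log2 fold change of each member between D2.1 and D2A1 in culture, BALB/c tumors and SCID-beige tumors, with 95% intervals; filled points passed an adjusted p of 0.05 over all genes. Tgfb3, Tgfbr2 and Tgfbr3 are filled to the right and Ltbp1 to the left in all 3 settings, and the Tgfb2 point lies at 2.52 in culture and at -0.73 in SCID-beige tumors.

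In tumors, Tgfb3, Tgfbr2, Tgfbr3 and Ltbp2 were higher and Ltbp1 lower in D2.1 than in D2A1 in both hosts. In BALB/c mice, 4 members were higher and 1 lower, 5 of 10 against 32.6% of 14953 genes. In SCID-beige mice, 4 were higher and 3 lower, 7 of 10 against 32.1% of 14355 genes. The members' medians were 0.14 and 0.35 on the log2 scale, beside -0.019 and 0.018 over all genes.

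Tgfb3 was at 432, 441, 504 and 512 CPM in the BALB/c D2.1 tumors and at 94.3, 116, 143 and 132 CPM in the BALB/c D2A1 tumors, without overlap (log2 fold change 1.97 ± 0.16, adjusted p = 1.11e-05). In SCID-beige mice, the D2.1 tumors were at 443, 424, 122, 191 and 452 CPM and the D2A1 tumors at 165, 149, 134, 104 and 122 CPM. Tumors 3 and 4 were low, and tumor 3 lay within the D2A1 range, whereas the other 3 D2.1 tumors were near those of BALB/c mice. The log2 fold change was 1.27 ± 0.31 (adjusted p = 0.00693) with all 5 and 1.70 (adjusted p = 1.45e-05) without tumors 3 and 4.

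Tgfb2 was at 77.0, 53.7, 40.0 and 76.6 CPM in BALB/c D2.1 tumors and at 65.8, 139.5, 83.9 and 70.4 CPM in BALB/c D2A1 tumors. The groups overlapped, and the log2 fold change was -0.53 with a 95% interval of -1.16 to 0.10 (adjusted p = 0.180). In SCID-beige mice, Tgfb2 was at 60.6, 44.9, 89.0, 78.1 and 89.5 CPM in D2.1 and at 90.8, 86.6, 137, 135 and 157 CPM in D2A1. The ranges met at their edge, and Tgfb2 was lower in D2.1 (log2 fold change -0.73 ± 0.23, adjusted p = 0.0236), with an adjusted p of 0.0515 to 0.0529 without D2A1 tumor 3, 4 or 5. Tgfb1 overlapped between the lines in both hosts, at 217.5 to 315 CPM in D2.1 and 196 to 270.2 CPM in D2A1 tumors of BALB/c mice, and at 216.9 to 312 and 249 to 386 CPM in SCID-beige mice. Its 95% intervals were -0.15 to 0.54 and -0.56 to 0.12 on the log2 scale.

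Tgfbr2 was at 360.2, 398, 226 and 248 CPM in BALB/c D2.1 tumors and at 143, 189, 105 and 127 CPM in BALB/c D2A1 tumors (log2 fold change 1.13 ± 0.23, adjusted p = 0.00417). In SCID-beige mice it was at 297, 232, 408, 237 and 352 CPM against 95.2, 73.8, 163, 134 and 187 CPM (1.23 ± 0.25, adjusted p = 0.00196). The lines did not overlap in either host. Tgfbr3 was at 45.9, 59.9, 32.0 and 35.3 CPM against 16.8, 12.4, 9.83 and 12.9 CPM in BALB/c mice (1.74 ± 0.25, adjusted p = 0.000495), and at 29.3 to 48.8 CPM against 12.1 to 22.6 CPM in SCID-beige mice (1.32 ± 0.21, adjusted p = 0.000342), also without overlap. Tgfbr1 was at 40.5 to 119 CPM in D2.1 and 52.2 to 88.9 CPM in D2A1 tumors of BALB/c mice. In SCID-beige mice the D2.1 tumors spread over 55.4, 63.7, 192, 34.4 and 123 CPM, wider than the 32.7 to 64.5 CPM of D2A1, and the log2 fold change of 0.93 did not pass the test (95% interval 0.077 to 1.78, adjusted p = 0.0903). It passed without D2.1 tumor 4, the lowest of its group (1.09, adjusted p = 0.0286).

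Ltbp2 and Ltbp1 differed in opposite directions. Ltbp2, the LTBP that does not bind the latent ligand and is a microfibril component, was at 305, 261, 298 and 342 CPM in BALB/c D2.1 tumors and at 61.2, 45.4, 46.8 and 43.3 CPM in BALB/c D2A1 tumors, 6.15-fold higher in D2.1 (log2 fold change 2.62 ± 0.16, adjusted p = 2.14e-06). In SCID-beige mice it was at 188, 215.2, 436, 38.1 and 210.7 CPM in D2.1 and at 71.6, 62.5, 57.8, 97.7 and 56.6 CPM in D2A1. Tumor 3 was the highest and tumor 4 the lowest, below every D2A1 tumor, and the log2 fold change was 1.66 ± 0.43 (adjusted p = 0.0101), beside 1.56 (adjusted p = 9.40e-05) without these tumors. The call was lost without the filter on low counts (1.66, adjusted p = 0.0726) and with the replicate number as a block (1.43, adjusted p = 0.105).

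Ltbp1 was at 36.7, 29.5, 26.4 and 26.5 CPM in BALB/c D2.1 tumors and at 139.6, 160.1, 93.3 and 123 CPM in BALB/c D2A1 tumors, 4.32-fold lower in D2.1 (log2 fold change -2.11 ± 0.20, adjusted p = 3.48e-05). In SCID-beige mice it was at 23.8, 19.5, 19.3, 15.3 and 23.6 CPM against 95.2, 80.0, 130.2, 102 and 146 CPM, 5.43-fold lower (-2.44 ± 0.20, adjusted p = 8.96e-07). No D2.1 tumor reached the level of any D2A1 tumor in either host. Ltbp4 was lower in SCID-beige D2.1 tumors (76.2 to 114 CPM) than in SCID-beige D2A1 tumors (124 to 152 CPM), without overlap (-0.54 ± 0.15, adjusted p = 0.0124), and overlapped in BALB/c mice (74.6 to 116 and 83.8 to 132 CPM, 95% interval -0.65 to 0.20). Ltbp3 was at 363 to 427 and 381 to 490.2 CPM in BALB/c mice and at 218.2 to 512 and 449 to 533 CPM in SCID-beige mice, where D2.1 tumor 4 was the lowest, with 95% intervals of -0.35 to 0.24 and -0.78 to 0.016. Exons of Ltbp2 and D030025P21Rik share 764 bases on opposite strands, and whether counting used the strand is not given in the sources used here, so that reads there cannot be assigned. Up to 70 reads in a library were counted on D030025P21Rik.

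Markers of host cells moved with the line in tumors. The summed level of the 5 fibroblast markers was 4991 to 8376 CPM in BALB/c D2.1 tumors and 1497 to 2746 CPM in BALB/c D2A1 tumors, and 2960.3 to 6729 and 1134 to 2714 CPM in SCID-beige mice, with all 5 above 3 counts in every tumor. In culture, where no host cell is present, that sum was already 1822 to 2622 CPM in D2.1 and 77.1 to 99.1 CPM in D2A1, most of it Col1a1, while Dpt and Lum were at 0 in D2A1 culture and at most 0.354 CPM in D2.1 culture. The 5 did not move alike in tumors. Col1a1, Dpt, Lum and Pdgfra were above the D2A1 range in D2.1 tumors of both hosts, as with Dpt at 34.7 to 203 CPM in D2.1 and 5.85 to 18.9 CPM in D2A1. Col1a2, at most 5.84 CPM in culture, overlapped between the lines in BALB/c mice (299 to 1266 CPM in D2.1 and 604 to 1086 CPM in D2A1) and, with D2.1 at the lower end, in SCID-beige mice (18.3 to 377 and 330 to 841 CPM). The sum of the 5 endothelial markers went the other way, 57.3 to 139 CPM in D2.1 tumors and 185 to 272 CPM in D2A1 tumors. The 6 macrophage markers overlapped between the lines within each host (1593 to 1907 and 1228 to 2302 CPM in BALB/c, 835 to 1857 and 715 to 1278 CPM in SCID-beige), and the 6 T cell markers were at 57.2 to 143 and 6.03 to 19.8 CPM in BALB/c mice and at 5.29 to 13.5 and 0.819 to 2.92 CPM in SCID-beige mice, without overlap in either host. Higher in D2.1 without overlap were also the sums of pericyte markers (593 to 750 against 301 to 524 CPM) and neutrophil markers (53.7 to 82.2 against 24.8 to 43.5 CPM) in BALB/c mice, and, in both hosts, those of B cell markers (6.33 to 77.2 against 0.232 to 0.777 CPM in BALB/c, 2.39 to 5.80 against 0.185 to 0.557 CPM in SCID-beige) and platelet markers (21.4 to 33.6 against 10.3 to 15.4 CPM, 21.3 to 45.1 against 10.6 to 19.0 CPM), whereas pericyte (375 to 726 and 412 to 732 CPM) and neutrophil markers (37.7 to 118 and 29.5 to 147 CPM) overlapped in SCID-beige mice. The part of these cells in the members' differences in tumors was not tested.

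Of the pathway lists, the genes induced by TGF-beta were divided in tumors, where 32.6% of all genes passed in BALB/c and 32.1% in SCID-beige mice. In BALB/c mice, 2 of 10 were higher and 2 lower in D2.1 (median log2 fold change 0.059), and in SCID-beige mice 3 of 9 and 2 (0.31). Nedd9 was higher (100.4 against 33.8 CPM, 1.57 ± 0.22, adjusted p = 0.000462 in BALB/c; 97.8 against 39.7 CPM, 1.30 ± 0.20, adjusted p = 0.00022 in SCID-beige). Ccn2, a matricellular protein gene, was lower (36.2 against 79.1 CPM, -1.12 ± 0.31, adjusted p = 0.0193; 28.0 against 72.7 CPM, -1.37 ± 0.32, adjusted p = 0.00468). Among the release and activation genes, 4 of 12 were higher and 3 lower in BALB/c mice and 4 of 12 and 4 in SCID-beige mice, with the gelatinase Mmp9 higher (421 against 50.8 and 559 against 69.3 CPM, log2 fold changes 3.05 ± 0.17 and 3.01 ± 0.33, adjusted p = 1.22e-06 and 1.35e-05) and thrombospondin 1, Thbs1, lower (60.4 against 901 and 56.0 against 915 CPM, -3.89 ± 0.38 and -4.02 ± 0.40, adjusted p = 3.80e-05 and 6.62e-06).

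Matrix anchors and ligand binders were higher for 3 of 9 and lower for 0 in BALB/c mice. In SCID-beige mice they were higher for 3 and lower for 2 of 9. Over all genes, 32.6% passed in BALB/c and 32.1% in SCID-beige mice. The anchors in BALB/c mice, and the Smads and regulators below in both hosts, were near that share. Decorin, Dcn, a proteoglycan that binds TGF-beta, was at 317 against 39.3 and 294 against 26.5 CPM (log2 fold changes 3.02 ± 0.28 and 3.47 ± 0.31, adjusted p = 2.89e-05 and 2.51e-06), and Fbln5, an elastic fiber gene, at 174 against 9.13 and 112 against 9.41 CPM (4.26 ± 0.18 and 3.57 ± 0.37, adjusted p = 4.84e-07 and 8.93e-06). Of 6 accessory receptors, 1 was higher and 3 lower in each host, with Cd109 lower (2.47 against 26 and 2.79 against 39.5 CPM, -3.38 ± 0.29 and -3.81 ± 0.50, adjusted p = 1.54e-05 and 6.23e-05). Of 12 Smads and regulators, 1, Smad3, was higher (119 against 54.5 and 124 against 55.4 CPM, 1.13 ± 0.18 and 1.17 ± 0.22, adjusted p = 0.00104 and 0.00132) and 3 were lower in each host, among them the inhibitory Smad7 (43.3 against 77.8 and 46.9 against 84.5 CPM, -0.84 ± 0.28 and -0.84 ± 0.27, adjusted p = 0.0431 and 0.0315).

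Whether the host went with the members' levels was read from BALB/c against SCID-beige tumors of each line. SCID-beige mice lack T and B cells, and also have defective NK cells and the Lyst bg mutation. The comparison cannot tell these apart. No member passed the test in either line by edgeR or by DESeq2 (0 of 10 in both), where 0.891% of 14929 genes did in D2.1 and 1.17% of 14572 in D2A1. An unadjusted p under 0.05 by edgeR was reached by 1489 of 14929 genes in D2.1 and by 1472 of 14572 in D2A1. Of the 10 members, 1 reached it in D2.1 and 3 in D2A1. In D2.1 this was Ltbp1, at 26.4 to 36.7 CPM in BALB/c and 15.3 to 23.8 CPM in SCID-beige tumors without overlap (log2 fold change 0.58, 95% interval 0.17 to 1.0, adjusted p = 0.243). In D2A1 these were Tgfb1 (-0.37, -0.72 to -0.011, adjusted p = 0.471), Ltbp2 (-0.49, -0.91 to -0.071, adjusted p = 0.370) and Ltbp4 (-0.35, -0.68 to -0.033, adjusted p = 0.416), all with lower fitted levels in BALB/c tumors. For Tgfb1 in D2.1, the 95% interval was -0.28 to 0.43, an upper bound of 1.35-fold for the host difference as a whole. T cell markers differed between the hosts in both lines, and their part in Tgfb1 was not tested.

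The intervals of the other members show which sizes of host difference remained compatible with the data. They were within -0.74 and 0.61 in D2.1 for Tgfb2, Tgfbr2, Tgfbr3, Ltbp3 and Ltbp4, and reached 1.28 for Tgfb3, 1.48 for Ltbp2 and -1.29 for Tgfbr1, the members in which SCID-beige D2.1 tumors 3 and 4 lay apart. In D2A1 they were within -0.98 and 1.01 for all 10 members. The interaction of line and host asks whether the line difference depended on the host. It passed for 0 of 10 members by edgeR and by DESeq2 (0.0187% of 16036 genes by edgeR). An unadjusted p under 0.05 by edgeR was reached by 0 members, beside 1355 of 16036 genes. The widest intervals were those of Ltbp2 (-0.16 to 2.09) and Tgfbr1 (-2.02 to 0.34). Of the pathway lists, 1 gene passed between hosts, Tgfbi, a matrix protein gene induced by TGF-beta, at 282 CPM in BALB/c and 144 CPM in SCID-beige D2A1 tumors (log2 fold change 0.97 ± 0.14, adjusted p = 0.0106).

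**Figure D3:**
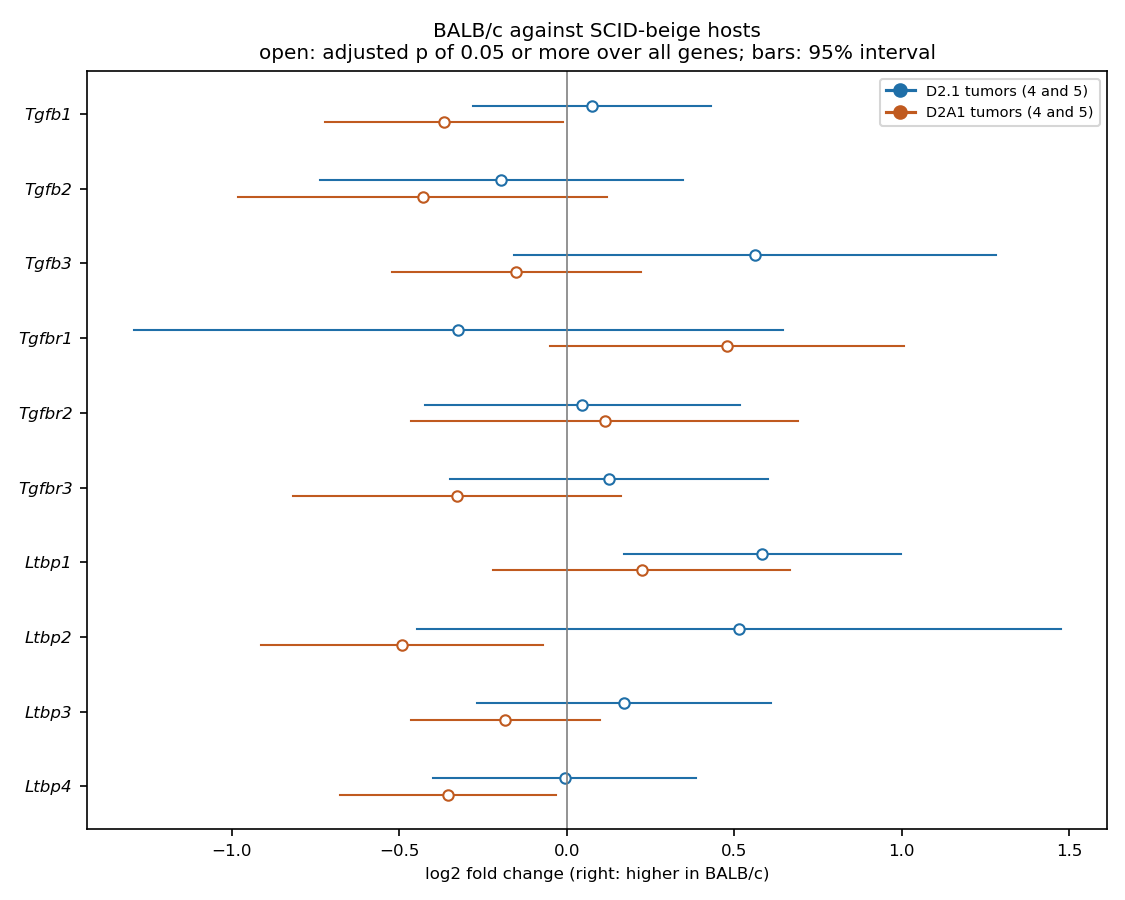
Log2 fold change of each member between BALB/c and SCID-beige hosts for D2.1 and D2A1 tumors, with 95% intervals. All 20 points are open, since none passed an adjusted p of 0.05 over all genes, and the intervals of Tgfb3, Tgfbr1 and Ltbp2 in D2.1 are the widest of that line.

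SCID-beige tumors were set against cultured cells of the same line after the raw counts of both tables were joined and normalized together. Tumor and culture were deposited as separate tables with different gene lengths, and a tumor holds host cells, so that setting, table and host cells cannot be told apart. In D2A1, 9 of 10 members were higher in tumors and 0 lower, against 58.1% of 13869 genes. In D2.1, 5 were higher and 1 lower, against 53.1% of 14111 genes. The members' medians were 1.69 and 0.60 on the log2 scale, beside 0.10 and 0.092 over all genes.

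Ltbp2 had the largest difference in both lines, with log2 fold changes of 3.92 ± 0.45 in D2A1 (adjusted p = 2.35e-05) and 5.23 ± 0.69 in D2.1 (adjusted p = 0.000116). All 3 ligands were higher in D2A1 tumors, at 2.0 ± 0.18 for Tgfb1 (adjusted p = 2.88e-06), 1.99 ± 0.23 for Tgfb2 (adjusted p = 2.60e-05) and 1.77 ± 0.22 for Tgfb3 (adjusted p = 4.74e-05). In D2.1, Tgfb1 was higher in tumors (0.79 ± 0.15, adjusted p = 0.00143) and Tgfb2 lower (-1.25 ± 0.23, adjusted p = 0.000971). Tgfb3 did not pass in D2.1 (0.47, 95% interval -0.36 to 1.30, adjusted p = 0.313), and did so without SCID-beige D2.1 tumors 3 and 4 (0.91, adjusted p = 0.00057) or without tumor 3 alone (0.68, adjusted p = 0.0496).

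Of the receptors, Tgfbr2 was higher in tumors of both lines (1.59 ± 0.30, adjusted p = 0.00079 in D2A1; 0.72 ± 0.23, adjusted p = 0.019 in D2.1). Tgfbr3 was higher in D2A1 tumors (1.64 ± 0.33, adjusted p = 0.00141), and in D2.1 its interval was -0.69 to 0.17. Tgfbr1 was the member that did not pass in D2A1 (0.47, 95% interval -0.11 to 1.04), and its call in D2.1 (1.24 ± 0.48, adjusted p = 0.0467) was lost without SCID-beige tumor 3 or 5, without any 1 of the 3 cultures, or without the filter on low counts (adjusted p = 0.0802 to 0.156). Of the latency proteins, Ltbp1 was higher in D2A1 tumors (1.75 ± 0.24, adjusted p = 9.80e-05) and had an interval of -0.56 to 0.30 in D2.1. Ltbp3 was higher in D2A1 tumors (0.73 ± 0.14, adjusted p = 0.000867) with an interval of -0.24 to 0.78 in D2.1, and Ltbp4 was higher in both (0.52 ± 0.13, adjusted p = 0.00603 in D2A1; 0.88 ± 0.25, adjusted p = 0.0109 in D2.1). In D2.1, the calls on Tgfbr2 and Ltbp4 were lost without culture 1 or 2 (adjusted p = 0.0619 to 0.0948).

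The test of whether the line difference depended on the setting passed for 4 of 10 members, 0 upward and 4 downward, against 12.8% of 15077 genes. A shift common to both lines, as different gene models in the 2 tables would give, cancels in it. RNA of host cells is present in tumors alone and need not cancel, and its part was not tested. Tgfb2 had the largest value, a log2 difference of -3.25 ± 0.34 (adjusted p = 2.68e-06), since it was higher in D2.1 culture and lower in D2.1 SCID-beige tumors. The value was -1.23 ± 0.22 for Tgfb1 (adjusted p = 0.000754), -1.91 ± 0.38 for Tgfbr3 (adjusted p = 0.00198) and -1.89 ± 0.30 for Ltbp1 (adjusted p = 0.000236). For Tgfb3 it was -1.31 ± 0.46 and did not pass (adjusted p = 0.0759), but did at -0.87 (adjusted p = 0.0375) without D2.1 tumors 3 and 4. For the other 5 members it lay between -0.88 (Tgfbr2) and 1.29 (Ltbp2) without passing.

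**Figure D4:**
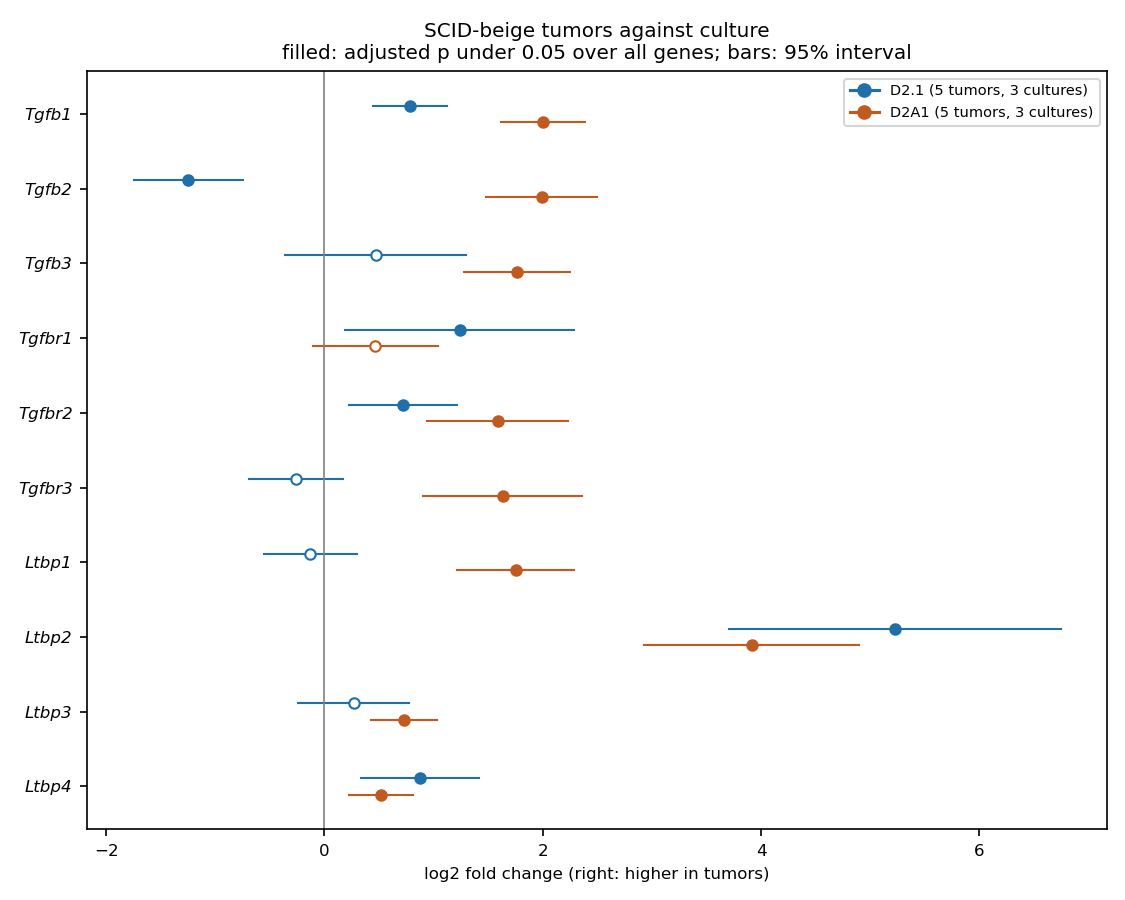
Log2 fold change of each member between SCID-beige tumors and culture for D2.1 and D2A1, with 95% intervals; filled points passed an adjusted p of 0.05 over all genes. D2A1 points lie right of 0 for all 10 members and 9 are filled, whereas the D2.1 point of Tgfb2 is filled on the left at -1.25.

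Among the pathway lists, the genes induced by TGF-beta had the most downward calls in the same test, 9 of 10 and 0 upward (median -1.61). Over all genes, 12.8% passed that test in either direction. In D2A1, 8 of 10 of these induced genes were higher and 1 lower in tumors (median 1.57), beside 58.1% of all genes called. In D2.1, 2 of 10 were higher and 3 lower (median -0.11), near the 53.1% of all genes called. Acta2 was at 208.7 CPM in D2.1 culture and 126 CPM in SCID-beige D2.1 tumors, and at 14.8 and 102 CPM in D2A1 (interaction -3.50 ± 0.55, adjusted p = 0.000233). Of the other lists, 5 of 12 release and activation genes, 5 of 9 matrix anchors, 1 of 12 Smads and regulators and 0 of 6 accessory receptors were called downward, and 1 matrix anchor upward. Host cell marker sums were higher in SCID-beige tumors than in culture in both lines (macrophages at least 715 against at most 9.42 CPM, endothelium at least 57.3 against at most 0.762 CPM), and their part in these values was not tested.

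Levels of different genes were compared per length, in the deposited FPKM (fragments per kilobase of gene, scaled to library size). In D2A1 culture, Tgfb1 was the highest ligand at 32.7 ± 0.813 FPKM (SD, n = 3), followed by Tgfb3 at 11.2 ± 3.79 and Tgfb2 at 6.15 ± 0.736, and no 2 neighbors overlapped. In D2.1 culture, Tgfb3 (61.7 ± 8.24) and Tgfb1 (60.9 ± 4.42) overlapped, above Tgfb2 (32.5 ± 6.66). In tumors, Tgfb1 was the highest ligand in all 4 groups, at 212.4 ± 29.9 and 203 ± 25.9 FPKM in D2.1 tumors of BALB/c (n = 4) and SCID-beige mice (n = 5), and at 194 ± 20.6 and 244 ± 33.1 FPKM in D2A1 tumors. Tgfb3 was next in D2.1 tumors (138 ± 10.3 and 93.7 ± 44.8 FPKM, overlapping Tgfb2 in SCID-beige mice). In D2A1 tumors, Tgfb2 (50.6 ± 18.5 and 67.7 ± 19.9) and Tgfb3 (36.8 ± 5.39 and 40.0 ± 5.59) overlapped.

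Tgfbr2 was the highest receptor in D2.1 culture (34.6 ± 8.93 FPKM), above Tgfbr3 (7.08 ± 1.02) and Tgfbr1 (6.18 ± 0.964), which overlapped. In D2A1 culture, Tgfbr2 (8.68 ± 1.78) overlapped Tgfbr1 (6.00 ± 1.47), and Tgfbr3 was lowest at 0.828 ± 0.459 FPKM. In all 4 tumor groups Tgfbr2 and Tgfbr1 overlapped, and Tgfbr3 had the lowest mean (4.91 to 15.6 FPKM), below the other receptors in D2A1 tumors and overlapping Tgfbr1 in D2.1 tumors of both hosts. Ltbp3 led the latency proteins in both cultures (52.7 ± 10.6 and 53.3 ± 5.22 FPKM in D2.1 and D2A1) and Ltbp2 was last (0.763 ± 0.169 and 0.637 ± 0.382). In D2.1 tumors Ltbp2 (80.3 ± 8.14 in BALB/c, 57.9 ± 39.2 in SCID-beige) overlapped Ltbp3, and in SCID-beige mice also Ltbp4, and Ltbp1 was last (8.08 ± 1.5 and 5.44 ± 0.954). In D2A1 tumors Ltbp3 was above the others, Ltbp4 and Ltbp1 overlapped in both hosts (36.9 ± 7.16 and 36.7 ± 8.58 FPKM in BALB/c, 46.3 ± 4.67 and 30.9 ± 8.49 FPKM in SCID-beige), and Ltbp2 (13.8 ± 2.73 and 18.9 ± 5.12 FPKM) was below them in BALB/c and overlapped Ltbp1 in SCID-beige mice.

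This order between genes depends on the lengths by which the FPKM were divided, and those differed between the tables. For 8 of 10 members, the length of the tumor table equalled the mean length of the gene's GENCODE M21 transcripts within 1 base, which counts short partial transcripts, and for 8 of 10 the length of the cell table equalled that of 1 transcript within 1 base. For Tgfb1 they were 1236 bases in tumors and 2175 in cells, and for Tgfb3 3383 and 3384. Of the summed ligand level in BALB/c D2.1 tumors, Tgfb3 made up 36% ± 2.62 (SD, n = 4) with the deposited lengths, 50.9% ± 2.70 with those of the cell table and 68.8% ± 2.55 with merged exons, and in BALB/c D2A1 tumors 13.1% ± 1.09, 22% ± 1.35 and 36.6% ± 2.57. With each choice the share of Tgfb3 was higher in D2.1 than in D2A1 without overlap. The ratio of Tgfb1 to Tgfb3 was 1.54 ± 0.148 in BALB/c D2.1 tumors with the deposited lengths, 0.876 with those of the cell table and 0.378 with merged exons, so that which of the 2 was the higher turned with the length. With the lengths of the cell table, Tgfbr2 was above Tgfbr1 without overlap in all 4 tumor groups (63.6 ± 17.9 and 12.5 ± 5.89 in BALB/c D2.1), and Ltbp3 was above Ltbp2 without overlap in BALB/c D2.1 tumors (77.3 ± 5.94 and 43.9 ± 4.46).

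**Figure D5:**
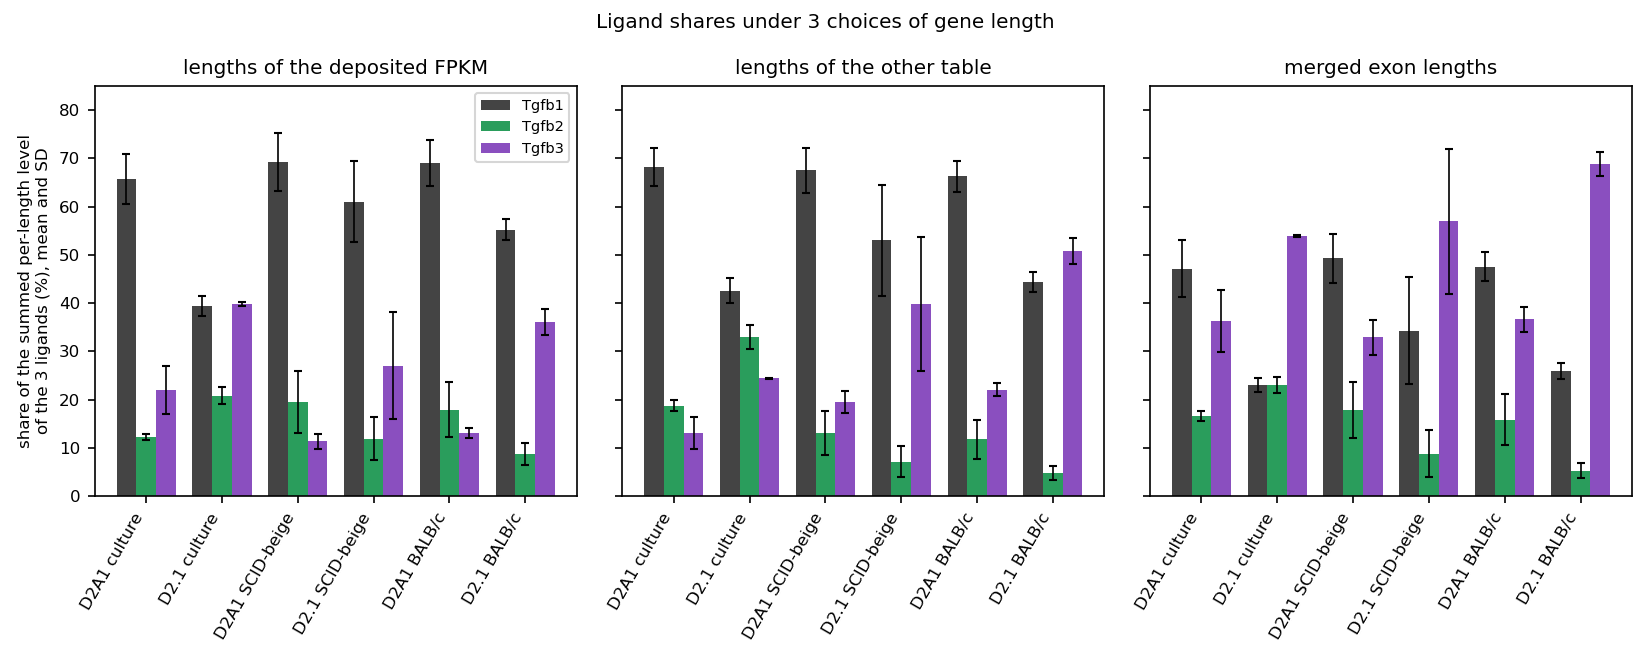
Share of each ligand in the summed per-length level of Tgfb1, Tgfb2 and Tgfb3 (percent, mean and SD over the libraries of a group) with 3 choices of gene length. The Tgfb3 bar is taller in D2.1 than in D2A1 for each setting and length, whereas whether it exceeds Tgfb1 within D2.1 depends on the length.

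The members whose group means of log2 CPM varied most were Ltbp2 (SD 2.55 over the 6 groups), Tgfbr3 (1.30) and Tgfb3 (1.27), and the least were Tgfbr1 (0.46) and Ltbp3 (0.28). Likeness was measured as the root-mean-square difference of centered log2 CPM over all 24 libraries, among 11624 protein-coding genes. Nearest to Ltbp2 were Tnfrsf25 (0.71), Galnt18 (0.75) and Dnm1 (0.76), where the median over all genes was 2.33. Nearest to Tgfbr3 were Ptger4 (0.37), Nedd9 (0.37) and Cyp39a1 (0.37), beside a median of 1.29, and nearest to Tgfb3 were Ephb3 (0.38), Tns2 (0.40) and Thra (0.40), beside 1.32. These are descriptions over libraries that share groups and tables.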

How the data were processed

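RNA-seq libraries of cultured D2.1 and D2A1 cells (3 each) and of their tumors in BALB/c (4 each) and SCID-beige mice (5 each) were grouped by the sample labels, with 0 libraries unassigned. The authors had Novogene prepare and sequence the libraries (Illumina NovaSeq), and deposited raw read counts per gene and FPKM, in 1 table for cells and 1 for tumors. The submitters' processing notes name STAR and mm10 without a role. The counting program, its annotation and its strand setting are not given in the sources used here. The deposited FPKM equalled count, divided by library total and by 1 length per gene, and that length was the same in both tables (within 0.1%) for 22.6% of 19189 genes. Identifiers were matched to GENCODE M21 on GRCm38, with 0.0969% of counts in cells and 0.00594% in tumors left unmatched.

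Counts were tested with edgeR 4.0.16 in R 4.3.3 (TMM, default expression filter, robust quasi-likelihood fits, Benjamini-Hochberg over all genes tested, adjusted p under 0.05), with only the groups compared in each fit. SE is the log2 fold change divided by the square root of F, and 95% intervals use the fit's degrees of freedom. CPM are TMM-normalized within each table (prior count 2 on the log2 scale), and a fold against a group with at most 3 counts in every library was not printed. The scripts were tested on simulated data in which 200 genes carried a log2 change of 2. There edgeR recovered 100% in each comparison among 12322 to 15481 genes, with 2.44% to 6.98% false calls. DESeq2, run so for the lines in culture, recovered 100% with 11.1% false calls. Simulated counts had the same dispersion for every gene, and the changed genes were above a minimum mean count. Genes with wider spread or lower counts were thus not covered. All 38 pairs of replicates differed beyond counting noise (chi-square of 4.96 to 117 times its degrees of freedom). In both lines the third culture stood apart from the first and second. By the same measure it differed from them by 40.3 and 46.0 in D2A1, where the first and second differed by 4.96. In D2.1 these values were 58.3 and 67.3, beside 19.4. Cultures are named only as triplicates, so that p-values there may measure technical spread.

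The members, the pathway and marker lists and the tests were chosen with earlier results of these data known. Named beside the members were up to 3 genes of a pathway list per comparison, the called ones with the largest fold whose higher group had a mean of 5 CPM or more, and the 3 genes nearest in pattern to each of the 3 most variable members. Some of these genes are not reported here. Labels give the groups the same replicate numbers. Deviations of same-numbered libraries from their group means correlated at 0.184 to 0.491 over the cultured lines. They did so at 0.100 to 0.491 over the lines in BALB/c mice and 0.131 to 0.273 over D2A1 tumors and cultures. No label states that same-numbered libraries are pairs, so these correlations do not establish pairing. The main tests left the numbers out, and the replicate block was an alternative. A block fit left out libraries whose number occurred in no other group of that fit. The other alternatives were DESeq2 1.42.0, its size factors in edgeR, no filter on low counts, all 18 tumors in 1 fit, each library left out, and BALB/c D2.1 tumors 1 and 4 left out. SCID-beige D2.1 tumors 3 and 4 left out and other gene lengths were added after seeing the data. Promoters are from RefSeq (GRCm38.p6), and open reading frames and motifs were found with Python 3.11.15 and Biopython 1.88.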

Additional observations from a re-analysis of the deposited data

Results flagged for a closer look

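In 4 members the tumor-to-culture change differed between the lines, by the test of the interaction of line and setting over SCID-beige tumors and cultured cells (edgeR, adjusted p under 0.05). The log2 differences of fold changes were -3.25 for Tgfb2, -1.91 for Tgfbr3, -1.89 for Ltbp1 and -1.23 for Tgfb1. For Tgfb2 the tumor-to-culture change was downward in D2.1 (-1.25) and upward in D2A1 (1.99). For Tgfb1 it was upward in both, by 0.79 and 2.0, and for Tgfbr3 and Ltbp1 it passed the test in D2A1 alone (1.64 and 1.75). Within the 4 groups of tumors, Dixon's test on the CPM of the 10 members marked 0 of 40 sets of values, although SCID-beige D2.1 tumors 3 and 4 lay apart from the other 3 in several members, since the test looks for 1 distant value at a time.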

How the results depend on the processing

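Of 1400 log2 fold changes of members recomputed under the alternatives, 1371 kept their side of the threshold, 22 lost a call, 7 gained one, and 0 called values changed sign (a change of sign where neither fit passed was counted as kept). Members changed varied under 1 library left out from 3 to 6 for D2.1 SCID-beige tumors against culture, and the 3 was reached without D2.1 culture 1 or 2. With the replicate block, members changed stayed at 7 for the lines in culture, 5 for the lines in BALB/c mice and 9 for D2A1 tumors against culture. Genes changed over all tested rose with it from 5602 to 7539 of 12489 and from 4868 to 7116 of 14953. For D2A1 tumors against culture they were 8054 of 13869 in the main test and 8991 with the block. That block fit left out SCID-beige tumors without a same-numbered culture and filtered the genes anew, so the 2 counts differ in more than the block. Where some same-numbered libraries correlated negatively, the block lost Ltbp2 between the lines in SCID-beige mice (adjusted p = 0.105). It gained Tgfbr2 in the interaction of line and setting (adjusted p = 0.0246). Tgfbr2 was also gained there without SCID-beige D2A1 tumor 2 (adjusted p = 0.0451), and Ltbp3 between the lines in SCID-beige mice without D2.1 tumor 1 (-0.56, adjusted p = 0.0341).

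Counts over all genes moved where few genes passed. Between hosts in D2.1 they were 133 by edgeR, 588 by DESeq2, 275 without the filter, 261 with all tumors, 14 with the replicate block, 11 without BALB/c tumors 1 and 4, 31 without SCID-beige tumors 3 and 4, and 26 to 314 with 1 library left out. Between hosts in D2A1 they were 170, 517 by DESeq2, 0 with the block and 27 to 172, and for the interaction of line and host 3, 105 by DESeq2, 6 with its size factors, 7 without the filter, 0 without BALB/c tumors 1 and 4 and 0 to 12.

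The ratio of Tgfb1 to Tgfb3 depended on gene length by construction. It was 0.992 (deposited), 1.75 (other table) and 0.428 (merged exons) in D2.1 culture, 3.12, 5.48 and 1.34 in D2A1 culture, 1.54, 0.876 and 0.378 in BALB/c D2.1, 5.30, 3.01 and 1.30 in BALB/c D2A1, 2.82, 1.60 and 0.691 in SCID-beige D2.1, and 6.18, 3.51 and 1.51 in SCID-beige D2A1 tumors.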
